A study of Mus musculus with 9 samples.

Results

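Glucose uptake, glycolysis, lactate output and the pentose phosphate pathway were followed through 40 named genes in mouse CD8+ T cells, the cytotoxic lineage of T cells. The cells were left untreated or given a gamma-chain cytokine, either interleukin-2 (IL-2 below) or its relative interleukin-15 (IL-15 below). The members were chosen by symbol from the textbook steps of these pathways, with earlier results of these data known. Their counts beside those of all genes are therefore descriptive. All 40 were found among the 20418 gene symbols of the files, and all 40 passed the filter on low counts. Spleens of female C57BL/6 mice aged 6 weeks were the source. One library was untreated, and each of the other 8 received either cytokine, at a dose of 1 nM or of 500 nM, during 4 h or during 24 h. RNA of 3 identically treated samples was pooled for every library, so each condition had 1 library and no spread between animals was measured. The labels name no sorting step and no genetic change, and the untreated library carries no time, so hours in culture and hours with cytokine cannot be told apart.

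Cells take up glucose through facilitative transporters, trap it with hexokinase, commit it at phosphofructokinase and split it into trioses that are oxidised to pyruvate with a gain of ATP. Pyruvate either enters mitochondria through pyruvate dehydrogenase, which the Pdk kinases switch off, or is reduced to lactate and exported. The pentose phosphate pathway branches off after hexokinase and supplies NADPH and ribose for nucleotides, and activated T cells are known for turning up these routes as they grow and divide.

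The 9 libraries held 27158143 to 48799962 counts over 1 transcript per gene, and 3 counts of a 1 kb transcript corresponded to 0.0615 to 0.11 RPKM, the read count scaled to transcript length and library size. Cd8a lay between 88.3 and 225 RPKM and Cd4 between 0.0513 and 1.17 RPKM in all 9 libraries, and the T cell marker Cd8b1 lay between 472 and 977 RPKM. Other genes listed as CD4 T cell markers were not all as low as Cd4. Foxp3 lay between 2.89 and 5.27 RPKM, Ctla4 between 0.648 and 5.46, Zbtb7b between 0.788 and 2.76 and Cd40lg between 0.061 and 0.828. Markers of other cells were present and moved with the conditions. The summed level of 14 myeloid markers was 1897 CPM (counts scaled to library size only) in the untreated library and 178 to 322 CPM at 4 h. It was 743 and 970.5 CPM at 1 nM 24 h, and 37.2 and 36.2 CPM at 500 nM 24 h. Of these markers, Itgam, S100a8 and S100a9 were at 0 at 500 nM 24 h, but they reached only 0.142, 0.429 and 0.508 RPKM in any library. The 10 B cell markers summed to 243 and 297 CPM at 500 nM 24 h against 385 to 838 CPM in the other 7 libraries. The 7 erythroid markers found summed to 8.13 and 10.7 CPM at 500 nM 24 h against 52.6 to 170 CPM elsewhere. The 8 dendritic markers summed to 179.3 CPM untreated, 19.7 and 29.2 CPM at 500 nM 24 h and 40.3 to 107.1 CPM in the remaining libraries. For the 7 NK markers the sums were 179.4 CPM untreated, 16.4 and 20.7 CPM at 500 nM 24 h and 26.0 to 84.75 CPM in the remaining libraries. The part of these other cells in the results below was not tested, and in bulk RNA fewer cells of a type and less RNA per cell cannot be told apart.

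The 40 members made up 0.661% of counts in the untreated library and 0.479% to 0.57% in the 4 libraries taken at 4 h. At 24 h they made up 0.716% with 1 nM IL-2 and 0.645% with 1 nM IL-15, and the share rose to 1.36% with 500 nM IL-2 and 1.28% with 500 nM IL-15. By mean level over the 9 libraries, 9 members were at 100 RPKM or more, 15 between 10 and 100, 10 between 1 and 10, and 6 below 1. In 17 of 40 members both 500 nM 24 h libraries lay above the other 7 libraries, against 20.6% of all tested genes. In 4 of 40, namely Pfkfb2, Pfkfb3, Pfkfb4 and Ldhb, both lay below the other 7, against 13.1% of all tested genes.

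**Figure D1:**
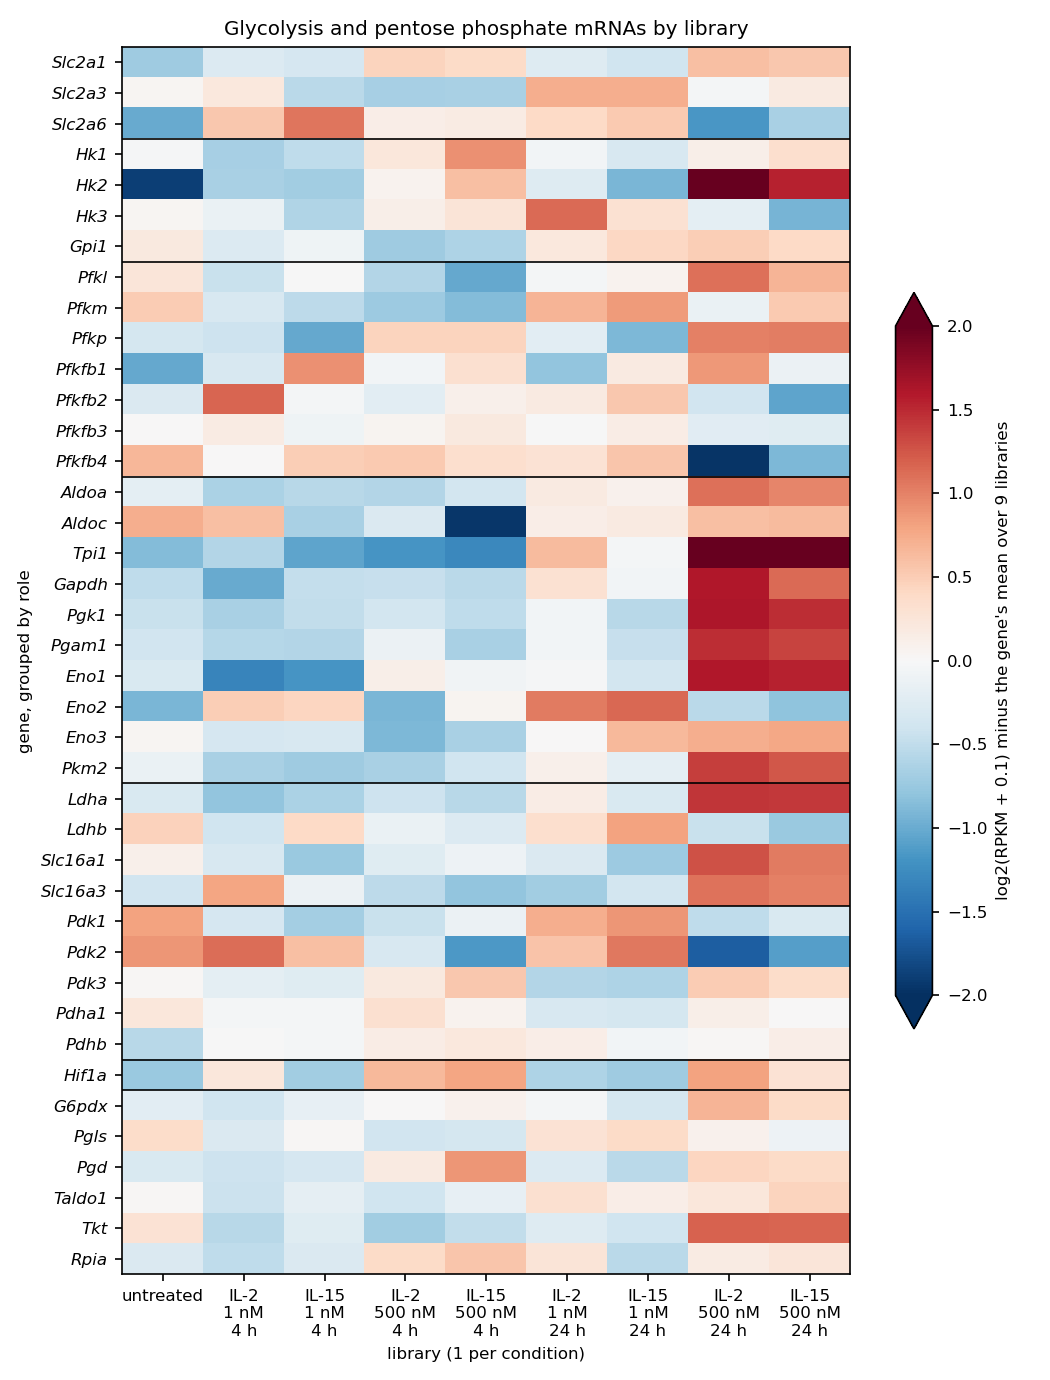
Heat map of the 40 members (rows, grouped by role) in the 9 libraries (columns), coloured by the log2 difference in RPKM from each member's mean over libraries after adding 0.1 RPKM. The columns for 500 nM at 24 h are the strongest for most lower glycolysis and lactate rows, including Tpi1, Pgk1, Pgam1 and Ldha, but not for Aldoc, Eno2 and Ldhb.

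Dose, time and cytokine were compared by the quasi-likelihood test of edgeR, with p-values adjusted by Benjamini-Hochberg over all 13479 genes tested, and a member was called at an adjusted p under 0.05. P-values rest on the spread left over by the layout of doses, times and cytokines, since no condition was repeated. Averaged over times and cytokines, 9 members were higher and 2 lower at 500 nM than at 1 nM, against 16.1% of all genes called (7.63% higher, 8.47% lower). The median log2 difference was 0.35 over members and -0.03 over all genes. Leaving out the IL-2 500 nM 24 h library left 5 called (7.28% of all genes). Leaving out the IL-15 1 nM 24 h library left 7 (7.67%). Averaged over doses and cytokines, 7 members were higher and 0 lower at 24 h than at 4 h, against 5.30% of all genes (2.69% higher, 2.62% lower). In the lower direction 1 member, Slc2a6 (-0.81), had an unadjusted p under 0.05, DESeq2 called 1, limma-voom 0 and edgeR with all 3 interactions 2. The time count was the least stable, and the share of all genes called moved with it. Leaving out IL-15 500 nM 24 h or IL-2 500 nM 4 h left 0 members (0.611% and 0.873% of all genes). Leaving out IL-2 1 nM 4 h, IL-15 500 nM 4 h or IL-2 500 nM 24 h left 1 (1.6%, 1.48% and 1.25%). Leaving out IL-2 1 nM 24 h left 4 (2.63%), and leaving out IL-15 1 nM 4 h gave 11 (9.9%). With a dose by time term in the fit, 22 members were called for dose (32.1% of all genes) and 19 for time (22.6% of all genes).

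The effect of dose differed between the times. The dose by time term, which is the dose difference at 24 h less that at 4 h, was called in 9 members upward and 3 downward, against 8.81% of all genes (4.06% and 4.76%). That count was 4 without the IL-2 500 nM 24 h or the IL-15 500 nM 24 h library (2.75% and 2.65% of all genes). It was 5 without IL-15 1 nM 4 h (2.98%) and 7 without IL-15 1 nM 24 h (5.85%). At 4 h, 6 members were higher and 1 lower at 500 nM than at 1 nM, against 10.1% of all genes (5.42% and 4.63%). The 4 h count fell to 1 without IL-15 500 nM 4 h (4.23% of all genes). It was 3 without IL-15 1 nM 4 h (6.2%) and 4 without IL-2 1 nM 4 h (5.16%). At 24 h, 19 members were higher and 6 lower, against 31.2% of all genes (15.6% in each direction). The count of 25 was 15 without IL-2 500 nM 24 h, where 15.6% of all genes were called. Lower glycolysis gave 7 of the 19 higher members, lactate 3, and the pentose phosphate pathway 3.

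**Figure D2:**
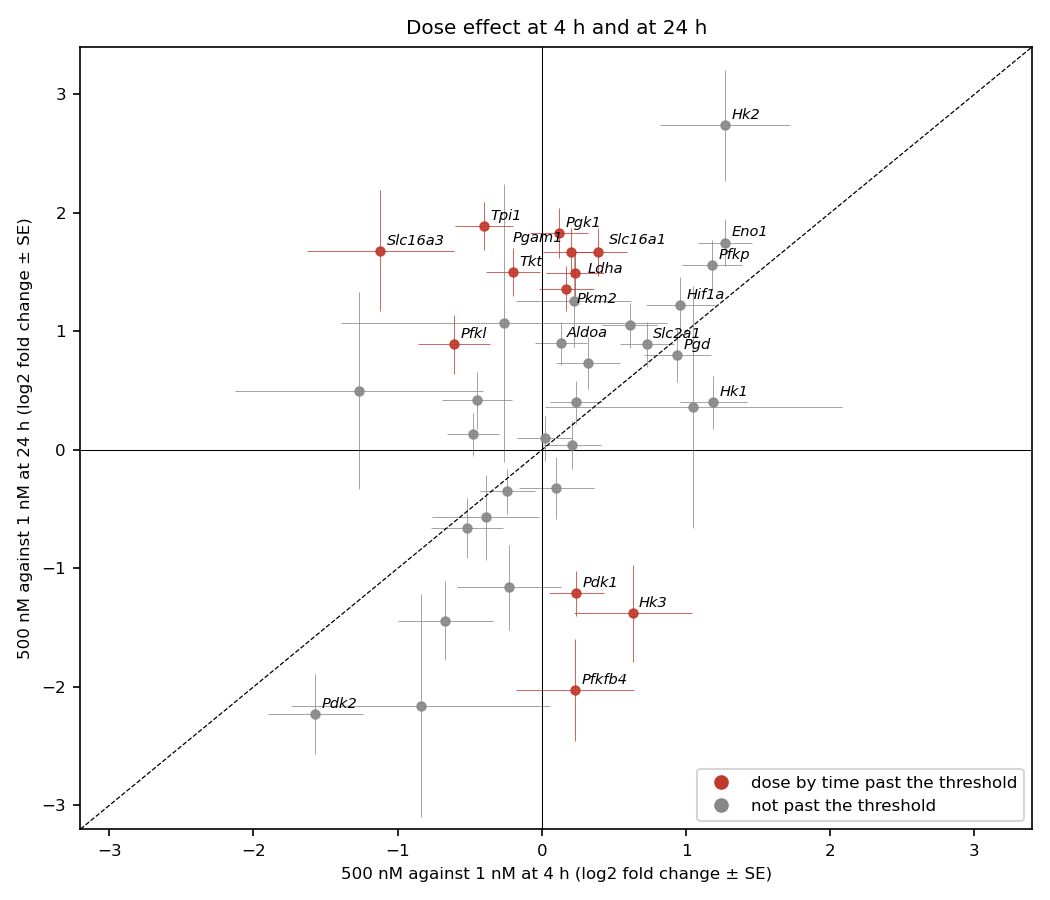
Log2 difference between 500 nM and 1 nM at 4 h (horizontal axis) against the same difference at 24 h (vertical axis) for 39 members (Eno2, with few counts, is left out), with error bars of 1 SE, members past the dose by time threshold in red and equal differences on the dashed line. Eno1 (1.27 at 4 h), Hk1 (1.19) and Pfkp (1.18) lie to the right, whereas Tpi1, Pgk1, Pgam1 and Ldha lie left of them and at 1.89, 1.83, 1.67 and 1.49 at 24 h.

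From 4 h to 24 h at 1 nM, 3 members rose, namely Tpi1, Eno1 and Pdk1, and 0 fell by edgeR, against 2.86% of all genes (1.49% and 1.37%). DESeq2 called 5 members for this comparison, all higher (6.14% of all genes). Without IL-15 1 nM 4 h, IL-2 1 nM 24 h or IL-2 1 nM 4 h, 1 member was called (0.761%, 1.39% and 0.546%). At 500 nM over the same interval, 15 rose and 2 fell, against 26.3% of all genes (13.3% and 12.9%). Without IL-2 500 nM 24 h, 11 were called (11.7% of all genes). Set against the single untreated library, 1 nM at 4 h gave 1 member higher and 2 lower (6.31% of all genes, 2.75% and 3.55%). With either IL-2 1 nM 4 h or IL-15 500 nM 24 h left out, 1 was called (2.12% and 4.34%). At 1 nM and 24 h edgeR called 0 members (1.65% of all genes, 0.861% and 0.786%), and 7 had an unadjusted p under 0.05. DESeq2 called 4 (5.35%) and limma-voom 0 (1.34%), and 1 was called without IL-15 1 nM 24 h (2.28%). At 500 nM and 4 h, 3 were higher and 7 lower (16.4% of all genes, 7.92% and 8.47%). Without IL-15 500 nM 4 h, 3 were called (7.99%). At 500 nM and 24 h, 14 were higher and 3 lower (25.2% of all genes, 12.8% and 12.3%).

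Among the 3 glucose transporters, Slc2a1 (GLUT1, the main transporter of growing cells) followed dose, while Slc2a6 was lower at the high dose and Slc2a3 did not pass the test. Slc2a1 was at 9.86 RPKM untreated. With IL-2 it was at 13.3 RPKM (1 nM 4 h), 13.6 (1 nM 24 h), 22.1 (500 nM 4 h) and 24.5 (500 nM 24 h), and with IL-15 at 12.8, 12.3, 21.1 and 23.4 RPKM in the same order. All 4 libraries at 500 nM were above all 4 at 1 nM, and the untreated library was the lowest. The log2 dose difference was 0.81 ± 0.15 (SE, edgeR adjusted p = 0.008), with 0.73 ± 0.19 at 4 h and 0.89 ± 0.19 at 24 h. Slc2a6, a transporter of lysosomal membranes, was at 1.43 RPKM untreated, then 4.37, 3.96, 3.26 and 1.26 with IL-2 and 6.33, 4.31, 3.32 and 1.85 with IL-15 in that order. Its 2 libraries at 500 nM 24 h were the lowest of the treated ones, and its log2 dose difference was -1.05 ± 0.27 (edgeR adjusted p = 0.03). Over 17 other settings of tools, filters, scaling, terms or libraries, that call was lost in 6, each with a library left out. The dose call of Slc2a1 over both times held in all 17. At 4 h the Slc2a1 call was lost in 6 of 15 other settings, and at 24 h in 1 of 15. Slc2a3 (GLUT3, a high-affinity transporter) ranged from 3.13 to 8.44 RPKM over the 9 libraries. The dose difference of Slc2a3 was -0.59 ± 0.19 and did not pass the test (edgeR adjusted p = 0.065). As a share of the summed RPKM of the 3 transporters, Slc2a1 was 49.1% to 59.9% in the untreated and 1 nM libraries and 75.5% to 79.9% at 500 nM.

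Hexokinases phosphorylate glucose, and Hk1 carried 76.5% to 90.0% of their summed RPKM in all 9 libraries. Hk1 was at 12.6 RPKM untreated, at 8.05, 12.3, 15.1 and 14.0 with IL-2 (1 nM 4 h, 1 nM 24 h, 500 nM 4 h, 500 nM 24 h) and at 9.05, 10.3, 24.3 and 16.2 with IL-15. The 4 libraries at 500 nM lay above the 4 at 1 nM. Its log2 dose difference was 1.19 ± 0.23 at 4 h (edgeR adjusted p = 0.005) and 0.79 ± 0.22 over both times (adjusted p = 0.043). The call over both times was lost in 7 of 17 other settings, and the call at 4 h in 2 of 15. Hk2, the inducible hexokinase of proliferating cells, was at 0.0869 RPKM untreated, at 0.339, 0.475, 0.625 and 3.05 RPKM with IL-2 and at 0.323, 0.264, 0.941 and 1.89 with IL-15 in that order. Both 500 nM 24 h libraries were the highest of the 9, and both at 500 nM 4 h were next. Hk2 had the largest dose difference of the 4 genes in this group, 2.02 ± 0.43 over both times (edgeR adjusted p = 0.015) and 2.74 ± 0.47 at 24 h (adjusted p = 0.00091). Its share of hexokinase RPKM went from 0.611% untreated to 16.6% with IL-2 and 10.1% with IL-15 at 500 nM 24 h.

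Hk3, the hexokinase typical of myeloid cells, was at 1.49 RPKM untreated, 1.32, 3.30, 1.59 and 1.25 with IL-2 and 0.925, 1.81, 1.75 and 0.71 with IL-15, again as 1 nM 4 h, 1 nM 24 h, 500 nM 4 h and 500 nM 24 h. Hk3 was lower at 500 nM than at 1 nM at 24 h (-1.38 ± 0.41, edgeR adjusted p = 0.023). In the same libraries the myeloid markers summed to 37.2 and 36.2 CPM at 500 nM and to 743 and 970.5 CPM at 1 nM. They summed to 1897 CPM in the untreated library, and to only 219 and 178 CPM at 500 nM 4 h, where Hk3 was above untreated. Whether Hk3 came from myeloid cells was not tested. Gpi1, the isomerase that makes fructose 6-phosphate, was the most abundant of this group with 152 RPKM untreated. With IL-2 it was at 110, 154, 81.1 and 188 RPKM and with IL-15 at 125, 178, 86.9 and 175. At 500 nM 4 h Gpi1 lay below the other 7 libraries, and it rose 1.03 ± 0.18 from 4 h to 24 h at 500 nM (edgeR adjusted p = 0.0015).

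Phosphofructokinase commits sugar to glycolysis, and its isoforms moved at different times. Pfkp, the platelet-type isoform, was at 20.7 RPKM untreated, 19.9, 22.9, 36.0 and 53.2 with IL-2 (1 nM 4 h, 1 nM 24 h, 500 nM 4 h, 500 nM 24 h) and 12.9, 14.2, 36.2 and 53.9 with IL-15. The 500 nM libraries were all above the rest, at 4 h already. The log2 dose difference of Pfkp was 1.18 ± 0.21 at 4 h (edgeR adjusted p = 0.0034) and 1.56 ± 0.21 at 24 h (adjusted p = 0.00023). Pfkl, the liver-type isoform, was at 17.5 RPKM untreated, 10.8, 14.3, 9.75 and 31.8 with IL-2 and 14.7, 15.5, 7.18 and 23.5 with IL-15. At 4 h it was lower at 500 nM than at 1 nM with either cytokine, and at 24 h it was higher. That change of dose effect gave a dose by time term of 1.49 ± 0.35 (edgeR adjusted p = 0.023), a call lost in 4 of 15 other settings. Pfkm, the muscle-type isoform, stayed between 0.975 and 3.46 RPKM and was higher at 24 h than at 4 h (1.08 ± 0.26, edgeR adjusted p = 0.047). That call was lost in 9 of 17 other settings, namely without the low-count filter and without each of the 8 treated libraries in turn.

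The 4 Pfkfb genes encode the bifunctional enzymes that set fructose 2,6-bisphosphate, the activator of phosphofructokinase, and were low throughout. Pfkfb4 was at 2.30 RPKM untreated, 1.41, 1.75, 2.06 and 0.29 with IL-2 and 2.02, 2.11, 1.81 and 0.707 with IL-15, in the order used above. Its 2 libraries at 500 nM 24 h were the lowest, and its log2 dose difference at 24 h was -2.03 ± 0.43 (edgeR adjusted p = 0.0034). Pfkfb3 ranged from 1.91 to 2.63 RPKM, Pfkfb1 from 0.145 to 0.838 and Pfkfb2 from 0.0232 to 0.472, and none of these 3 passed edgeR's test for dose, time or dose by time.

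The later steps of the pathway, from aldolase to pyruvate kinase, held several of the most abundant members, and most of its genes rose from 4 h to 24 h at 500 nM. Of its 10 genes, 8 rose from 4 h to 24 h at 500 nM and 0 fell by edgeR, with a median log2 difference of 1.73. Over all genes 13.3% rose and 12.9% fell in this comparison, and the median was -0.04. The remaining 2, Aldoc and Eno2, were scarce. Tpi1 (triose phosphate isomerase) had the largest rise of the 40 members in that comparison, 3.35 ± 0.22 on the log2 scale (edgeR adjusted p = 1.9e-05). It was at 11.7 RPKM untreated, 14.3, 33.5, 9.48 and 104 RPKM with IL-2 (1 nM 4 h, 1 nM 24 h, 500 nM 4 h, 500 nM 24 h) and 10.3, 20.9, 8.73 and 94.1 with IL-15. The 24 h libraries were above the 4 h libraries at both doses, and both at 500 nM 24 h were above all others. The dose by time term of Tpi1 was 2.29 ± 0.29 (edgeR adjusted p = 0.0013), and 500 nM at 24 h exceeded untreated by 2.94 ± 0.28 (adjusted p = 4.2e-05).

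Pgk1 (phosphoglycerate kinase, the first ATP-yielding step) was at 114 RPKM untreated, 98.5, 149.5, 119.5 and 473 with IL-2 and 109.6, 105, 108.5 and 431 with IL-15 in the same order. The 7 libraries outside 500 nM 24 h lay within 98.5 to 149.5 RPKM. Pgam1 (phosphoglycerate mutase) was at 88.9 RPKM untreated, 78.5, 111, 107 and 323 with IL-2 and 77.0, 84.4, 74.4 and 295 with IL-15. It too set the pair at 500 nM 24 h apart from the other 7. Dose by time terms were 1.71 ± 0.29 for Pgk1 (edgeR adjusted p = 0.006) and 1.46 ± 0.28 for Pgam1 (adjusted p = 0.0085).

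Eno1 (alpha-enolase) differed from these genes in responding to dose at 4 h. Its levels were 204 RPKM untreated, 100.3, 248, 274 and 767 with IL-2 (1 nM 4 h, 1 nM 24 h, 500 nM 4 h, 500 nM 24 h) and 111, 196, 239 and 728.5 with IL-15. Both 1 nM 4 h libraries were below the untreated one, by -0.99 ± 0.23 on the log2 scale (edgeR adjusted p = 0.025), and both at 500 nM 4 h were above it. The dose difference of Eno1 was 1.27 ± 0.19 at 4 h (adjusted p = 0.0013) and 1.75 ± 0.20 at 24 h (adjusted p = 6.6e-05), and its dose by time term of 0.48 ± 0.27 did not pass (adjusted p = 0.32).

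Aldoa (aldolase A, the ubiquitous muscle-type form) was at 353 RPKM untreated, 259, 455, 269.7 and 861 with IL-2 and 275, 429, 313 and 791 with IL-15, as 1 nM 4 h, 1 nM 24 h, 500 nM 4 h and 500 nM 24 h. Every 24 h library was above every 4 h library, and its log2 time difference was 1.04 ± 0.20 (edgeR adjusted p = 0.025). The time call of Aldoa was lost in 5 of 17 other settings. Pkm2, the files' symbol for the pyruvate kinase gene Pkm, was at 156 RPKM untreated, 109, 184.5, 109.5 and 449 with IL-2 and 105, 149, 130.0 and 407 with IL-15. Its 500 nM 24 h libraries exceeded all others, with a dose by time term of 1.19 ± 0.27 (edgeR adjusted p = 0.02), a call lost in 5 of 15 other settings. The muscle and embryonic splice forms were not told apart here, since 1 transcript stood for each gene.

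Eno3 (beta-enolase) was at 12.7 RPKM untreated, 9.81, 12.5, 6.58 and 20.6 with IL-2 and 9.91, 19.5, 7.89 and 21.3 with IL-15 in the same order. Its 4 libraries at 24 h lay above its 4 at 4 h, a log2 time difference of 1.03 ± 0.23 (edgeR adjusted p = 0.04). The time call of Eno3 was lost in 6 of 17 other settings. Gapdh (glyceraldehyde-3-phosphate dehydrogenase) was listed at 2.65 RPKM untreated, 1.86, 4.72, 2.76 and 11.7 with IL-2 and 2.71, 3.69, 2.61 and 8.49 with IL-15. The pair at 500 nM 24 h was again highest, and Gapdh was higher there than at 1 nM 24 h by 1.26 ± 0.39 (edgeR adjusted p = 0.028). That Gapdh call was lost in 4 of 15 other settings. The mouse genome carries many near-identical copies of Gapdh, and the handling of reads that map to several places is not given in the sources used here, so the level of Gapdh is uncertain. Aldoc ranged from 0.102 to 1.19 RPKM, and Eno2 from 0 to 0.317 RPKM with 0 in the untreated library, so no fold is given for Eno2.

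**Figure D3:**
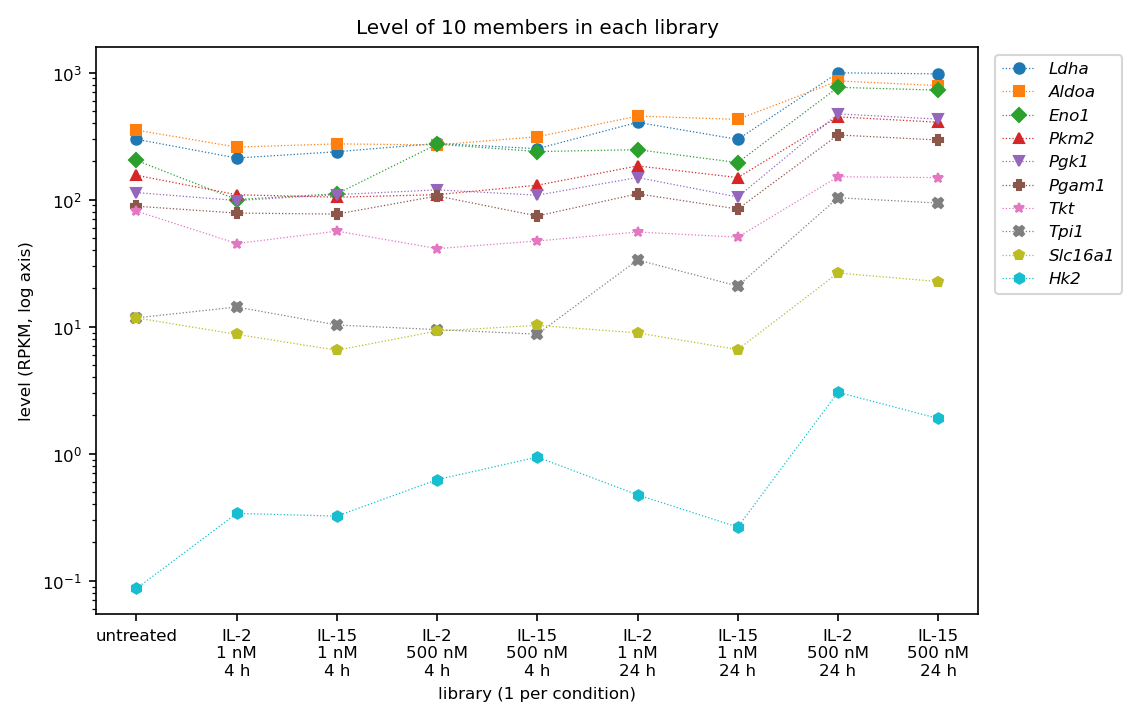
RPKM (log axis) of 10 members in each of the 9 libraries, 1 per condition, with 1 symbol and colour per gene and dotted lines only to guide the eye. All 10 are highest in the pair at 500 nM 24 h, and Eno1 is also higher at 500 nM 4 h (239 and 274 RPKM) than at 1 nM 4 h (100.3 and 111).

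Lactate dehydrogenase A regenerates NAD by turning pyruvate into lactate, and Ldha had the highest listed RPKM of the members at 500 nM 24 h. It was at 299 RPKM untreated, 213, 406.5, 277 and 998 RPKM with IL-2 (1 nM 4 h, 1 nM 24 h, 500 nM 4 h, 500 nM 24 h) and 238.5, 298, 252 and 978 with IL-15. The pair at 500 nM 24 h was above every other library, the next being 1 nM IL-2 at 24 h. Ldha had a dose by time term of 1.26 ± 0.28 (edgeR adjusted p = 0.019) and exceeded untreated by 1.59 ± 0.26 at 500 nM 24 h (adjusted p = 0.0011). Its dose by time call was lost in 5 of 15 other settings. Ldhb, which favours the reverse reaction, was at 8.29 RPKM untreated, 4.52, 7.57, 5.45 and 4.37 with IL-2 and 7.93, 10.5, 4.93 and 3.55 with IL-15. It was lowest in the pair at 500 nM 24 h, where it was below 1 nM by -1.16 ± 0.36 (edgeR adjusted p = 0.028). Ldha was 96.6% or more of the summed RPKM of both genes in every library and 99.6% at 500 nM 24 h with either cytokine.

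Slc16a1 (MCT1) and Slc16a3 (MCT4) carry lactate across the plasma membrane. Slc16a1 was at 11.7 RPKM untreated, 8.70, 8.94, 9.25 and 26.5 with IL-2 and 6.53, 6.60, 10.3 and 22.7 with IL-15 in the order above. Only the pair at 500 nM 24 h was above the untreated library, and the dose by time term was 1.28 ± 0.28 (edgeR adjusted p = 0.018). The dose by time call of Slc16a1 was lost in 5 of 15 other settings. Slc16a3 was lower, at 0.76 RPKM untreated, 1.84, 0.595, 0.678 and 2.27 with IL-2 and 0.935, 0.77, 0.551 and 2.15 with IL-15. The pair at 500 nM 24 h was the highest, followed by IL-2 1 nM 4 h. The dose by time term of Slc16a3, 2.80 ± 0.73 (edgeR adjusted p = 0.033), combined a lower level at 500 nM than at 1 nM at 4 h with a higher one at 24 h. Its call was lost in 7 of 15 other settings.

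The promoters of the members with a higher dose by time term were read because these 9 genes moved together. RefSeq promoter windows of GRCm38.p6, 250 bases before to 50 bases after each start, were matched for 39 of 40 members by symbol, with Pkm2 as Pkm and without Slc2a3. The counts were aligned to mm8, so the windows were joined by symbol and not by position. The letters ACGTG, the core of the hypoxia response element, were searched on both strands and overlap the E-box CACGTG, the site class of Myc. ACGTG occurred in 19.6% of all 32851 windows and in 21.8% of 27025 symbols, in 21 of 39 matched members and in 6 of the 9. CACGTG occurred in 7.15% of windows and 8.09% of symbols, in 7 of 39 members and in 2 of the 9, Ldha and Slc16a1. TTCNNNGAA, the palindrome of STAT5 sites, occurred in 8.3% of windows and 9.55% of symbols, in 2 of 39 members (Pfkm and Aldoc) and in 0 of the 9. A match is a description of these letters and no evidence of binding.

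The windows of Ldha (chr7:46845554-46845853, plus strand), Slc16a1 (chr3:104638414-104638713, plus), Pgk1 (chrX:106186850-106187149, plus), Pgam1 (chr19:41911621-41911920, plus), Slc16a3 (chr11:120948817-120949116, plus), the second window of Pkm (chr9:59656977-59657276, plus) and, for a steep riser with no match, Tpi1 (chr6:124814109-124814408, minus) are shown 5′ to 3′, with ACGTG or its reverse complement CACGT in capitals.
Ldha: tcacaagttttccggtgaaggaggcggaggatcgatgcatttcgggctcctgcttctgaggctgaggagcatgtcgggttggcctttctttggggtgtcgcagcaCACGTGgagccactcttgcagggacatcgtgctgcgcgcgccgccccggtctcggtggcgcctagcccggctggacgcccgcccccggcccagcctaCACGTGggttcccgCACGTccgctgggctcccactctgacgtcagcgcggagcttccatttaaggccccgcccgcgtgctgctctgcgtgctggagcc
Slc16a1: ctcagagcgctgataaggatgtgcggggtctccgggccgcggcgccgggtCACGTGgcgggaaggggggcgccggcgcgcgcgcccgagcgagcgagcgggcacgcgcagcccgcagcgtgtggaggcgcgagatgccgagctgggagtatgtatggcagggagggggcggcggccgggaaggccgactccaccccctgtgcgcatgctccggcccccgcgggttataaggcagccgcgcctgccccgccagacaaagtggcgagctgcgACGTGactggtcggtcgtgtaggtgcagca
Pgk1: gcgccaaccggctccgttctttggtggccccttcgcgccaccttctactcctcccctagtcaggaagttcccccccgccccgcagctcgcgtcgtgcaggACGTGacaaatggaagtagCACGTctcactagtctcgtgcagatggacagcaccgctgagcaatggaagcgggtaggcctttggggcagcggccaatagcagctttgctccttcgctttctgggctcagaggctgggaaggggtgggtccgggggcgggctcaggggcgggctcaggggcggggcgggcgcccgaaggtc
Pgam1: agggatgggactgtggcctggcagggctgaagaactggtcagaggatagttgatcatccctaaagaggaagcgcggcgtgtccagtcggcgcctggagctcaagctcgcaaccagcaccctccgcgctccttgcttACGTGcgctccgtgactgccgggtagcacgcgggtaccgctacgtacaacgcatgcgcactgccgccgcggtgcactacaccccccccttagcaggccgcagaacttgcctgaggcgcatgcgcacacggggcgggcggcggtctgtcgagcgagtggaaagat
Slc16a3: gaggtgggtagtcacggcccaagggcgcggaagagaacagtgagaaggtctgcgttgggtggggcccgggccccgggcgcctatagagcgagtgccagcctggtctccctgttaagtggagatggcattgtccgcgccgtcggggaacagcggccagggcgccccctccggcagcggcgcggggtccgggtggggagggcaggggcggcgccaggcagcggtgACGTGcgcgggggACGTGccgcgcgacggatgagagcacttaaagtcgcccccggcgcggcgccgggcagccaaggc
Pkm: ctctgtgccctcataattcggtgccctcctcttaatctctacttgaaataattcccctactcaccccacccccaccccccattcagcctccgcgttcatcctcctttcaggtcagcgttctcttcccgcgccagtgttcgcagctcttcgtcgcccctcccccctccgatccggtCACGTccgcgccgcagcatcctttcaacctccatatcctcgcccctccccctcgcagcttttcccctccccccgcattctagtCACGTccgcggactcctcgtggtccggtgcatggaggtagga
Tpi1: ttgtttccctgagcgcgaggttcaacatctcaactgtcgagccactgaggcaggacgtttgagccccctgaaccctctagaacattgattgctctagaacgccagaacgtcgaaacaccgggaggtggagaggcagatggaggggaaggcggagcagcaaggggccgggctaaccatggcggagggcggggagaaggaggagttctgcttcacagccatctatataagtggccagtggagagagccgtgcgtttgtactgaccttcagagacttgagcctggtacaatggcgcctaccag

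Ldha held 5 matches of ACGTG over both strands, where each of its 2 CACGTG counts on both strands. Slc16a1 held 3, Pgk1, Slc16a3 and Pkm 2 each, and Pgam1 1. Pfkl and Tkt, the other members of the 9, had no match, as did Tpi1.

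Pyruvate dehydrogenase kinases close the entry of pyruvate into mitochondria, and the 3 kinases measured went in different directions. Pdk1 was at 73.1 RPKM untreated, 32.9, 68.7, 30.5 and 29.3 with IL-2 (1 nM 4 h, 1 nM 24 h, 500 nM 4 h, 500 nM 24 h) and 25.9, 76.6, 38.5 and 33.7 with IL-15. The untreated and both 1 nM 24 h libraries formed a high set from 68.7 to 76.6 RPKM, and the other 6 a low set from 25.9 to 38.5. Pdk1 was below untreated by -1.37 ± 0.22 at 1 nM 4 h (edgeR adjusted p = 0.0043), rose by 1.23 ± 0.19 from 4 h to 24 h at 1 nM (adjusted p = 0.0048) and had a dose by time term of -1.44 ± 0.26 (adjusted p = 0.0077).

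Pdk2 was at 11.6 RPKM untreated, 13.5, 9.22, 4.92 and 1.92 with IL-2 and 9.44, 13.0, 2.75 and 2.82 with IL-15 in the same order. All 4 libraries at 500 nM were below all others, a log2 dose difference of -1.90 ± 0.28 (edgeR adjusted p = 0.004). Pdk3 was at 42.8 RPKM untreated, 36.9, 28.2, 48.6 and 60.4 with IL-2 and 35.6, 27.5, 61.7 and 54.6 with IL-15. Its 4 libraries at 500 nM were above the other 5, a dose difference of 0.83 ± 0.17 (edgeR adjusted p = 0.013). Pdk3 was 57.9% to 65.9% of the summed RPKM of the 3 kinases at 500 nM, 33.6% in the untreated library and 23.5% and 26.6% at 1 nM 24 h, where Pdk1 made up 65.4% and 64.7%. The dehydrogenase's own E1 subunits, Pdha1 and Pdhb, were measured too, and neither passed edgeR's test for dose, time or dose by time. Pdha1 was at 84.0 RPKM untreated, 70.1, 57.4, 89.6 and 77.9 with IL-2 and 70.0, 56.4, 75.2 and 72.0 with IL-15 in the same order. Pdhb ranged from 16.2 to 27.7 RPKM.

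**Figure D4:**
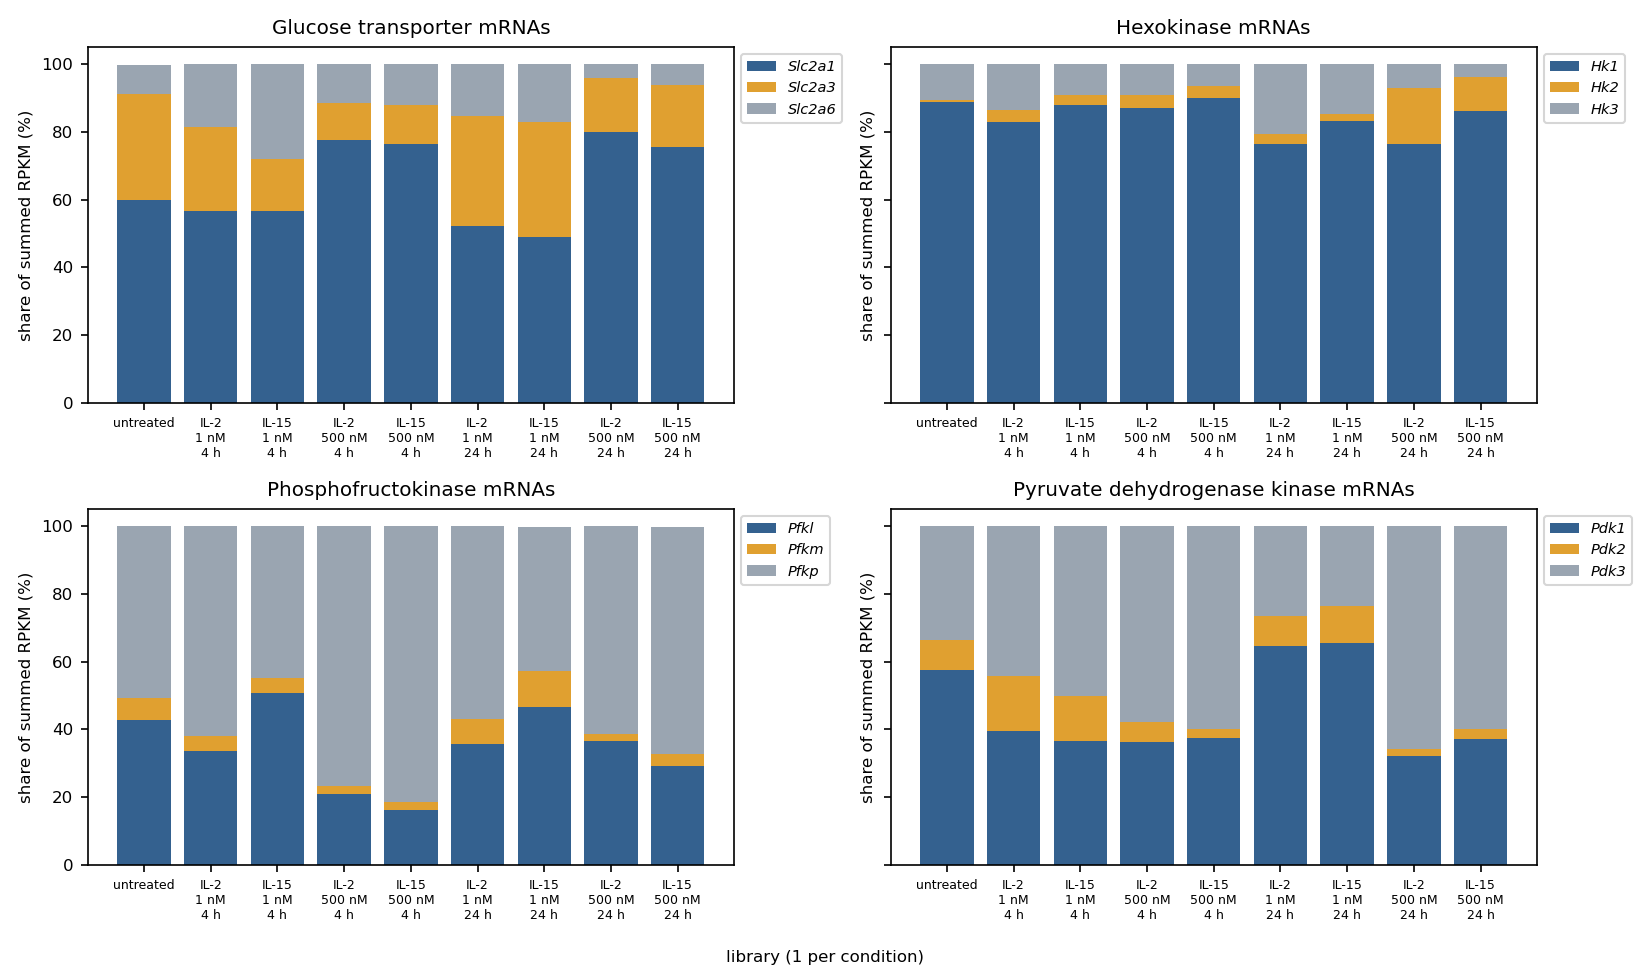
Share of each isozyme in the summed RPKM of its family (percent, stacked bars from 0) in the 9 libraries for glucose transporters, hexokinases, phosphofructokinases and pyruvate dehydrogenase kinases. The Slc2a1 and Pdk3 shares are largest in the 4 libraries at 500 nM, and Hk2 reaches 16.6% and 10.1% in the pair at 500 nM 24 h.

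Hif1a, the oxygen-regulated subunit of the hypoxia factor that is a known activator of glycolytic genes, was at 5.50 RPKM untreated, 10.9, 5.96, 14.5 and 16.2 with IL-2 and 5.67, 5.60, 15.9 and 11.2 with IL-15, as 1 nM 4 h, 1 nM 24 h, 500 nM 4 h and 500 nM 24 h. The 4 libraries at 500 nM were the highest, the lowest of them (11.2 RPKM) close to IL-2 1 nM 4 h. Its log2 dose difference was 0.96 ± 0.24 at 4 h (edgeR adjusted p = 0.021) and 1.22 ± 0.24 at 24 h (adjusted p = 0.0021).

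Of the 6 pentose phosphate members, G6pdx, Pgd and Tkt rose with dose at 24 h, while Pgls, Taldo1 and Rpia did not pass that test. G6pdx (glucose-6-phosphate dehydrogenase, the entry step) was at 13.7 RPKM untreated, 12.0, 15.5, 16.0 and 25.4 with IL-2 and 14.2, 12.4, 16.8 and 20.8 with IL-15. The pair at 500 nM 24 h was the highest, above 1 nM by 0.73 ± 0.22 (edgeR adjusted p = 0.024). That G6pdx call was lost in 3 of 15 other settings. Pgd (6-phosphogluconate dehydrogenase, the other NADPH-yielding step) was at 34.8 RPKM untreated, 32.3, 35.4, 48.96 and 57.8 with IL-2 and 33.97, 29.6, 78.9 and 56.3 with IL-15 in that order. All 4 libraries at 500 nM were above the rest, with a dose difference of 0.94 ± 0.23 at 4 h (edgeR adjusted p = 0.019) and 0.80 ± 0.23 at 24 h (adjusted p = 0.017). The Pgd call at 4 h was lost in 3 of 15 other settings, and that at 24 h in 2 of 15.

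Tkt (transketolase, of the non-oxidative branch that returns carbon to glycolysis) was at 81.2 RPKM untreated, 45.2, 55.6, 41.2 and 151.5 with IL-2 and 56.6, 50.7, 47.3 and 149 with IL-15, again as 1 nM 4 h, 1 nM 24 h, 500 nM 4 h and 500 nM 24 h. The other 6 treated libraries were all below the untreated one. The dose by time term of Tkt was 1.69 ± 0.28 (edgeR adjusted p = 0.0048). Pgls (6-phosphogluconolactonase) had the highest mean level of the branch, with 282 RPKM untreated, 178, 269, 167 and 232 with IL-2 and 222, 287, 171 and 205 with IL-15. It was below untreated at 500 nM 4 h by -0.79 ± 0.23 (edgeR adjusted p = 0.036). That Pgls call was lost in 4 of 14 other settings, each with a library left out. Taldo1 (transaldolase) ranged from 91.1 to 168 RPKM, and Rpia (ribose-5-phosphate isomerase) from 0.271 to 0.688 RPKM.

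No member separated IL-15 from IL-2 by the test. Over all conditions edgeR called 0 of 40 members for IL-15 against IL-2 (0% of all genes), and 0 had an unadjusted p under 0.05. DESeq2 and limma-voom each called 0 members (0.0148% and 0% of all genes). With a dose by time term edgeR called 0 (0% of all genes), and 1 had an unadjusted p under 0.05. With all 3 interactions it called 0 (0.0223% of all genes), and 2 had an unadjusted p under 0.05. The log2 difference of IL-15 from IL-2 was -0.03 ± 0.26 for Ldha, -0.04 ± 0.15 for Slc2a1 and -0.29 ± 0.41 for Tpi1, and over the 40 members it ran from -0.78 ± 0.66 (Aldoc) to 0.90 ± 1.40 (Eno2). At 1 nM alone edgeR called 0 (0% of all genes) with 1 at an unadjusted p under 0.05, and at 500 nM alone 0 (0% of all genes) with 0. The median log2 ratio of IL-15 to IL-2 over the members was -0.01 at 1 nM 4 h, -0.09 at 1 nM 24 h, 0.06 at 500 nM 4 h and -0.08 at 500 nM 24 h. Members at least 2-fold apart numbered 3 of 40 at 1 nM 4 h, where 15.0% of all genes were, counting genes with 20 or more counts in either library, 2 of 40 at 1 nM 24 h (15.6%), 1 of 39 at 500 nM 4 h (13.5%) and 3 of 39 at 500 nM 24 h (7.76%). These were Pfkfb1, Pfkfb2, Pfkfb4, Aldoc and Rpia, all but Pfkfb4 with a mean level below 1 RPKM. Each of these pairs compares 1 library with 1 library, and the counts of 0 do not show that the cytokines act alike.

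Genes next to these routes came from 5 lists fixed by symbol, also with earlier results of these data known. Their counts for dose stand against 16.1% of all genes called (7.63% higher, 8.47% lower), and those for time against 5.30%. For dose, regulators of glucose metabolism had 2 of 24 tested genes higher and 2 lower, a share near that of all genes. Myc, a transcription factor known to drive glycolytic genes, was higher by 1.59 ± 0.18 (edgeR adjusted p = 0.0014), with 305.9 and 322.9 RPKM at 500 nM 4 h against 84.5 and 94.5 RPKM at 1 nM 4 h. Txnip, which restrains glucose uptake, was lower by -1.27 ± 0.34 (adjusted p = 0.036), with 29.9 and 37.6 RPKM at 500 nM 24 h against 132 and 164 RPKM at 1 nM 24 h. Akt2 was higher by 0.56 ± 0.16, and Mlx rose with time by 0.69 ± 0.16, the 1 gene of that list called for time.

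Among glycogen, galactose and hexosamine genes, Galk1 (galactokinase) was higher at 500 nM by 1.33 ± 0.33, Gfpt1, the entry to hexosamines, by 0.98 ± 0.18, and Galt was lower by -0.70 ± 0.17. Galk1 also rose with time by 2.30 ± 0.34. Beside the 16.1% of all genes called for dose, pyruvate entry and shuttle genes had 3 of 21 higher and 2 lower. Among them were Got1 of the malate-aspartate shuttle (1.00 ± 0.16), Gpd2 (0.72 ± 0.19), Gpd1l (-1.19 ± 0.15) and Gpd1 (-3.26 ± 0.83). Gpd1 rested on few counts at 500 nM, 45 (4 h) and 4 (24 h) with IL-2 and 12 and 1 with IL-15. It had 81 to 104 counts in the 1 nM libraries and 313 untreated. Likewise near the 16.1% of all genes, pentose phosphate neighbours had 1 of 10 higher, Prps1, which makes phosphoribosyl pyrophosphate (0.75 ± 0.19), and 1 lower, H6pd (-0.84 ± 0.20). Other glycolytic isoforms had 0 of 11 higher by edgeR and 1 lower, Slc2a8 (-1.05 ± 0.27), and 9630033F20Rik, listed here for the fructose bisphosphatase Tigar, rose with time by 1.22 ± 0.23.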

How the data were processed

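RNA sequencing of 9 libraries of CD8+ T cells was analysed, 1 per condition. The deposited tables hold raw counts for each RefSeq transcript. They also hold RPKM, made by the authors from those counts per the file headers. The submitters' processing notes name CASAVA 1.8, Bowtie 0.12.4 and mm8. Whether strand was used, and how reads mapping to several places were counted, is not given in the sources used here. One transcript stood for each symbol, that with the most counts on average. Only counts were tested. R 4.3.3 with edgeR 4.0.16 (filterByExpr with each library as its own group, minimum count 10, total 15; TMM; quasi-likelihood) fitted cytokine, dose, time and an untreated term, leaving 4 residual degrees of freedom, and 3 with dose by time added. Dose at each time, time at each dose and each dose and time against untreated came from the fit with dose by time. SE is the absolute log2 difference divided by the square root of F. P-values were adjusted by Benjamini-Hochberg over 13479 genes at a threshold of 0.05. Alternatives were DESeq2 1.42.0, limma-voom 3.58.1, other scaling, filters and terms, and leaving out each library. Full levels are given for members called in dose, time, dose by time or 500 nM 24 h against untreated and for those that lead their role. Scripts were tested on simulated data. The members and lists were chosen with earlier results of these data known. Each library pools 3 samples and no condition was repeated, so the p-values rest on what the fitted terms leave over. That remainder mixes spread between libraries, which may be technical, with any interaction of cytokine, dose and time left out of the fit. One gene of the neighbouring lists, and its list's counts, are not reported here.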

Additional observations from a re-analysis of the deposited data

Results flagged for a closer look

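For 12 members the difference between 500 nM and 1 nM was not the same at 4 h and at 24 h, by the dose by time term of the edgeR fit after Benjamini-Hochberg adjustment (log2 dose difference at 24 h less that at 4 h), against 8.81% of all genes called. It was positive for Slc16a3 (2.80), Tpi1 (2.29), Pgk1 (1.71), Tkt (1.69), Pfkl (1.49), Pgam1 (1.46), Slc16a1 (1.28), Ldha (1.26) and Pkm2 (1.19). It was negative for Pfkfb4 (-2.27), Hk3 (-2.01) and Pdk1 (-1.44). With limma-voom 10 members were called (7.32% of all genes), 9 upward and 1 downward, and the calls of Hk3 and Pfkfb4 were lost. Over 15 other settings, the calls of Pgk1, Tkt and Tpi1 held in all, and those of Hk3 and Pfkfb4 were each lost in 8.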

How the results depend on the processing

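No paired analysis was possible because each condition has 1 library and its replicate number is only a name. Of 112 calls of a member in a comparison, 48 held in every setting run, 64 were lost in at least 1, 59 of these only where a library was left out, and 0 changed direction. Of 102 counts of called members under other tools, filters, scalings or terms, 10 moved over 1.5 times. For 500 nM against 1 nM the main count was 11 (16.1% of all genes called), and DESeq2 gave 18 (25.7%), limma-voom 18 (20.8%), the dose by time term 22 (32.1%) and all 3 interactions 23 (34.3%). For 24 h against 4 h it was 7 (5.30%), and DESeq2 gave 16 (15.5%), the dose by time term 19 (22.6%) and all 3 interactions 19 (26%). The share of all genes called rose with the members' counts. DESeq2 gave 5 (6.14%) for 24 h against 4 h at 1 nM (main 3, 2.86%) and 4 (5.35%) for 1 nM 24 h against untreated (main 0, 1.65%), where leaving out the low-count filter gave 1 (2.08%). The cause was not tested, except that the added terms take the dose by time difference out of the residual spread by construction. With 1 library left out at a time, counts of called members ranged from 5 to 16 for dose, 0 to 11 for time, 4 to 12 for dose by time, 1 to 7 for dose at 4 h, 15 to 26 for dose at 24 h, 1 to 3 for time at 1 nM and 11 to 19 for time at 500 nM. Against untreated they ranged from 1 to 3 for 1 nM 4 h, 0 to 1 for 1 nM 24 h, 3 to 12 for 500 nM 4 h and 12 to 18 for 500 nM 24 h. They stayed at 0 to 0 for IL-15 against IL-2, also at each dose, and for cytokine by dose and cytokine by time. In the main fits 0% of all genes were called in those comparisons. The share of all genes called also moved when a library was left out. For dose it was 7.28% where 5 members were called and 18.2% where 16 were. For time it was 0.611% and 0.873% where 0 were called, and 9.9% where 11 were. For dose by time it was 2.75% and 2.65% where 4 were called, and 8.93% where 12 were. A condition whose library is left out has no library of its own and rests on the layout. Eno2, with 0 counts in the untreated library, is limited by depth.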
